A study of Mus musculus with 6 samples.

Results

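The 53 keratin genes of the mouse were examined for open chromatin in embryonic fibroblasts, among 21883 protein-coding genes in all. The members are the protein-coding genes whose symbols begin with Krt and a number, and the names of keratin-associated proteins (Krtap) were not taken. Of the 53 genes, 27 form the type I cluster on chromosome 11, 25 form the type II cluster on chromosome 15, and Krt18 is a type I gene that lies at the end of the type II cluster. The 6 members listed as keratins of simple epithelium are Krt7, Krt8, Krt18, Krt19, Krt20 and Krt23.

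Keratins are the intermediate filament proteins of epithelial cells. A type I chain pairs with a type II chain, and the pairs differ by tissue, with Krt8 and Krt18 in simple epithelium, Krt5 and Krt14 in the basal layer of stratified epithelium, Krt1 and Krt10 in the layers above it, and many others in hair. Fibroblasts build their intermediate filaments from vimentin instead, and keratins serve as markers of epithelial cells.

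ATAC-seq, whose transposase cuts and tags open DNA, was applied to fibroblasts heterozygous for both M2-rtTA, the doxycycline-dependent transactivator, and TetO-Myf6, which doxycycline switches on to produce the muscle regulator Myf6. All cells were cultured for 24 h in iMPC medium with 10 ng/mL bFGF. The group with Myf6 and F/R/C received 2 µg/mL doxycycline, 5 µM forskolin, 5 µM RepSox and 3 µM CHIR99021, the Myf6 group received 2 µg/mL doxycycline, and the medium group received neither, with 2 libraries in each of the 3 groups. The file used here holds 323483 consensus intervals of the whole experiment, with positions on GRCm38.p6 and no value for a library or a group, so that the 3 groups were not compared, no value below has a replicate error, and no test was made. Read depth is unknown here. Because the libraries are bulk, an interval open in few cells cannot be told apart from one weakly open in all of them.

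As a check of the cell type, all 7 fibroblast markers (Col1a1, Col1a2, Col3a1, Pdgfra, Thy1, Vim and Fn1) had a consensus interval at 1 end of the gene or the other, within 1 kb. The same was true of all 7 epithelial markers (Cdh1, Epcam, Cldn4, Cldn7, Esrp1, Esrp2 and Grhl2). Over all protein-coding genes the share with such an interval was 74.7%. The presence of an interval therefore did not separate the markers of the labelled cell type from epithelial ones.

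The promoter windows that carry the main observation are printed here, each from 250 bases before to 50 bases after a start site listed by RefSeq on GRCm38.p6, read 5′ to 3′ along the gene. Capitals mark the bases that lay under a consensus interval. Krt18 and Krt8 encode the partner chains of simple epithelium, and Krt20 is a keratin of intestinal epithelium. Krt13, of oral and oesophageal mucosa, and Krt79, of the sebaceous duct and hair canal, had the other wide intervals near a start. Krt5 and Krt14 are the basal pair. The windows are chr15:102027966-102028265 on the plus strand for Krt18 and, on the minus strand, chr15:102004293-102004592 for Krt8, chr11:99438104-99438403 for Krt20, chr11:100120528-100120827 for Krt13, chr15:101940275-101940574 for Krt79, chr15:101712856-101713155 for Krt5 and chr11:100205981-100206280 for Krt14.
Krt18: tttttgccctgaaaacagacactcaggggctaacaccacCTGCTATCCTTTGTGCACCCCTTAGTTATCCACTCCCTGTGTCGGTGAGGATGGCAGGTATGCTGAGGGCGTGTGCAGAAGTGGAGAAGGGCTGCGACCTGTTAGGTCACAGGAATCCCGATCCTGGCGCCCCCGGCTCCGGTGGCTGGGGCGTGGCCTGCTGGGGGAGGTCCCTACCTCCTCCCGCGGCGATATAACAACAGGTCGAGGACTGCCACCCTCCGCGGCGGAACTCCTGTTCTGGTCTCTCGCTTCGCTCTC
Krt8: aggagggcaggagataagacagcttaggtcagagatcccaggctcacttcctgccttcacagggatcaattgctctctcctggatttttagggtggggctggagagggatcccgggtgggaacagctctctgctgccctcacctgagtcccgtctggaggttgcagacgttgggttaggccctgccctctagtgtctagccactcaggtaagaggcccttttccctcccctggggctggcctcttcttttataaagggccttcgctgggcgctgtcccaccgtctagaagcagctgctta
Krt20: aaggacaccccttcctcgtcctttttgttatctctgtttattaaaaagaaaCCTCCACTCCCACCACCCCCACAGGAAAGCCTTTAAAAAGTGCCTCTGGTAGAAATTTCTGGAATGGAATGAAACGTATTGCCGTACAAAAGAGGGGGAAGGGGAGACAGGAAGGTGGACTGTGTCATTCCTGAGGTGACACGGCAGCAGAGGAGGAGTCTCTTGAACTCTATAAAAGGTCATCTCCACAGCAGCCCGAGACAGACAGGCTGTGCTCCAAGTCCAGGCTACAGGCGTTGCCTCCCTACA
Krt13: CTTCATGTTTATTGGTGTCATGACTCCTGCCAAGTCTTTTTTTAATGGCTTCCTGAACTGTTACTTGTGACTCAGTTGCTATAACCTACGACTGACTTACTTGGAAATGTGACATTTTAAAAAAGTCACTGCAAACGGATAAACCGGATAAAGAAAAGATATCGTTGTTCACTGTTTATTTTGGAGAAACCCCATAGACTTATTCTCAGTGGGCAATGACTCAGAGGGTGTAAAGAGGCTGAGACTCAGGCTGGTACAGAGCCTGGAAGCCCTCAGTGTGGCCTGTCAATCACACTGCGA
Krt79: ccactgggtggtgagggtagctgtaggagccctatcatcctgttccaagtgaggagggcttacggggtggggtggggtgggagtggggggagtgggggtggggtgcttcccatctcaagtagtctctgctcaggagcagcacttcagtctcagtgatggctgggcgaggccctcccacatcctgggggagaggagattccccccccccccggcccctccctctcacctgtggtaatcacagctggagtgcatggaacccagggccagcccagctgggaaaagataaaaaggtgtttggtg
Krt5: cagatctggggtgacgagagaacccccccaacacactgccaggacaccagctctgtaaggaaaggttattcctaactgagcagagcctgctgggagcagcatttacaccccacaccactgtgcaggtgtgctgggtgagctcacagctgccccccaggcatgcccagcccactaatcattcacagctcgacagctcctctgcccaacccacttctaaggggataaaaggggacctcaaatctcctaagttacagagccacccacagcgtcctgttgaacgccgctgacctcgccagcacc
Krt14: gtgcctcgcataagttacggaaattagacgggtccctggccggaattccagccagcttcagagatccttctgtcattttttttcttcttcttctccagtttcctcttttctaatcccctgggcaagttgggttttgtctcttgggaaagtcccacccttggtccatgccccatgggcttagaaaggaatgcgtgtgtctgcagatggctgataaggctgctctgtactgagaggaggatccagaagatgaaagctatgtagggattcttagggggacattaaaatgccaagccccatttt

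Of these 7 windows, that of Krt13 was covered over all 300 bases, that of Krt18 over 261 and that of Krt20 over 249, while those of Krt8, Krt79, Krt5 and Krt14 had no covered base. The Krt13 window belongs to the inner of 2 listed start sites, and that of the outer site had none covered. The Krt14 start site listed here lies inside the annotated gene, whose upstream end, on the minus strand, is at 100207510. An interval of 208 bp at 100207601 to 100207808 lay just upstream of that end. Krt20 was added to the printed windows after its values were seen.

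Few keratin start sites had a consensus interval, although intervals lay farther off around nearly all the genes. Of the 36 members with a listed start site, 9 (25.0%) had an interval within 1 kb of it, where 71.6% of all protein-coding genes with a listed start site had one. An interval of at least 600 bp lay within 1 kb of the start in 4 of the 36 (11.1%), beside 64.1% of all such genes. The start base itself was under an interval in 4 of the 36 (Krt18, Krt20, Krt13 and Krt9), beside 65.3% of all such genes. The median distance from a listed keratin start to the nearest interval was 2733 bp, and over all genes it was 0 bp.

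The shortfall beside all genes was largest within 1 kb of the start, smaller between 1 and 2 kb, and small or absent beyond 2 kb. Intervals covered 6.14% of the sequence within 1 kb of the 37 keratin start sites, against 42.7% within 1 kb of all 21262 protein-coding start sites. Between 1 and 2 kb the covered shares were 6.41% at the keratins and 10.9% at all start sites, between 2 and 5 kb they were 6.17% and 5.74%, and between 5 and 10 kb they were 6.67% and 7.97%. The cover of keratin loci thus stayed between 6.14% and 6.67% at each of these distances, with no peak at the start, and over all the chromosomes it was 5.62%. The keratin shares rest on 37 sites and carry no error estimate.

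**Figure D1:**
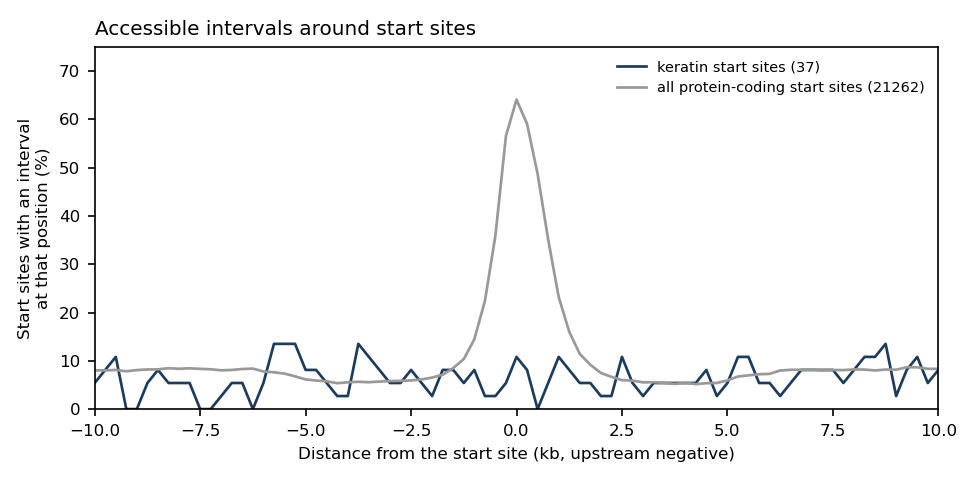
The plot shows, for each distance from a start site in kb (upstream negative), the percentage of start sites with a consensus interval at that position, for 37 keratin start sites and for 21262 start sites of all protein-coding genes. The line of all genes reaches 64.1% at the start site, and the keratin line is at 10.8% there, a level it also reaches at several other distances.

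The keratins with an interval within 1 kb of a listed start were Krt18, Krt8, Krt20, Krt13, Krt9, Krt79, Krt39, Krt25 and Krt12. An interval of 601 bp spanned the Krt18 start, from −211 to +389 bp relative to it. The Krt20 interval measured 433 bp, from −199 to +233 bp. That of Krt9, a keratin of palm and sole epidermis, measured 461 bp and ran from −193 to +267 bp. At Krt13 an interval of 850 bp ran from −420 to +429 bp relative to the inner start site. The interval of Krt39, a hair shaft keratin, was only 233 bp wide and ended 22 bp before the start, so it did not reach it. The other 4 lay farther off, at 418 bp from the start for Krt25 of the inner root sheath, 579 bp for Krt8, 799 bp for Krt79 and 930 bp for the corneal keratin Krt12. Across the 9 genes the widest interval near the start had a median of 461 bp, and over all protein-coding genes with such an interval it was 1268 bp.

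Simple epithelial keratins had 3 of 5 listed start sites (60.0%) with an interval within 1 kb (Krt8, Krt18 and Krt20), against 6 of 31 (19.4%) among the other keratins. Both shares were below the 71.6% of all protein-coding genes with an interval within 1 kb of a listed start. The other keratins differed by role, from 0 of 2 in the basal layer to 2 of 5 (40.0%) in mucosa and cornea. Among those of stress, wounds and appendages it was 1 of 2 (50.0%), so 3 of 5 is not far from other small groups. Krt7, found in ductal epithelium, and Krt23 had none within 1 kb of the start. The nearest Krt7 interval was also the widest at that gene, 1406 bp at 101413840 to 101415245, and lay inside the gene 1437 bp from the start. For Krt23 the nearest was 3170 bp away. Krt19, of simple and ductal epithelium, has no start site in the table used. Around the upper end of Krt19 (100145926) lay 4 narrow intervals of 182, 324, 490 and 152 bp between 100144932 and 100146821.

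Of the basal pair, Krt5 had no interval over the gene, and the nearest to its start was 3004 bp away, at 101715909 to 101716143 (235 bp). Krt14 had an interval of 296 bp inside the gene, at 100203457 to 100203752, and none within 1 kb of the listed start. The interval of 208 bp just upstream of the annotated gene was the nearest to that start, 1571 bp away. Krt15, of basal cells and the hair bulge, had an interval across each gene end, of 673 and 321 bp.

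For the 17 members without a listed start site the ends of the gene were examined instead, where an end can be either the start or the finish of transcription. An interval lay within 1 kb of an end in 11 of the 17. They were Krt15, Krt19, Krt1, Krt16, Krt80, Krt81, Krt83, Krt86, Krt87, Krt88 and Krt222, and those with none were Krt4, Krt6a, Krt6b, Krt17, Krt33a and Krt35. The widest was that of Krt1, a suprabasal epidermal keratin, with 1218 bp at its lower end. Krt80 had a pair of 923 and 972 bp at its upper end. Over all 53 members 31 (58.5%) had an interval at either end, beside 74.7% of all protein-coding genes.

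The type I and type II clusters held about as many intervals per 100 kb as their chromosomes, but the type I intervals covered less sequence. The type I cluster, from Krt222 to Krt42 at 99232761 to 100269951 on chromosome 11, held 165 intervals in 1037 kb, or 15.9 per 100 kb, while all of chromosome 11 had 16.0 per 100 kb. The type II cluster with Krt18, from Krt80 at 101348315 to 102032026 on chromosome 15, held 101 intervals in 683.7 kb, or 14.8 per 100 kb, while all of chromosome 15 had 13.6. Over chromosomes 1 to 19, X and Y there were 12.3 per 100 kb. The share of sequence covered was 5.99% in the type I cluster, against 7.71% on chromosome 11, and 6.57% in the type II cluster, against 6.18% on chromosome 15. Intervals of at least 600 bp made up 19.4% of those in the type I cluster, against 27.8% on chromosome 11, and 28.7% of those in the type II cluster, against 25.1% on chromosome 15. The median width was 282 bp in the type I cluster and 353 bp in the type II cluster, and the order of the clusters by covered share was the reverse of that by count.

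Within each cluster the intervals were uneven. The type I genes lie in 2 blocks on either side of a stretch of keratin-associated protein genes, and these blocks, like those of the type II cluster below, were delimited after the positions were seen. The block from Krt222 to Krt40 held 20.3 intervals per 100 kb, the Krtap stretch 12.6 and the block from Krt33a to Krt42 16.6. On chromosome 15 the part from Krt80 to Krt75, which holds Krt7 and the hair shaft keratins of the cluster, held 22.6 per 100 kb. The following 271.5 kb, between Krt75 and Krt1, held 14 intervals, or 5.16 per 100 kb, and 1.66% of it was covered. It includes Krt6b, Krt6a, Krt5, Krt71, Krt72, Krt73 and Krt2, the genes of wound, basal, inner root sheath and upper epidermal keratins. Its longest stretch without an interval ran for 98.0 kb, from 101599528 to 101697512, over Gm5414, Krt6b and Krt6a. The part from Krt1 to Krt78 held 14.6 per 100 kb.

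**Figure D2:**
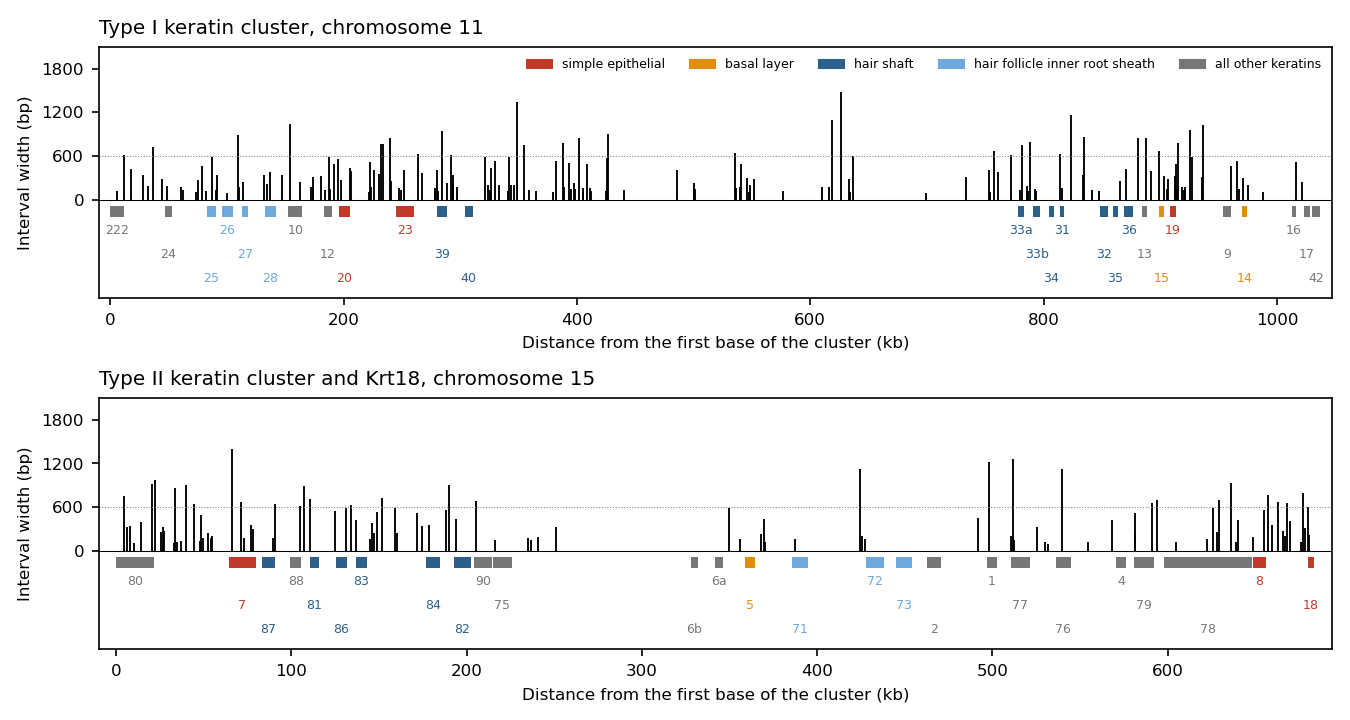
Each vertical line is a consensus interval at its midpoint, with its height as its width in bp, against the distance in kb from the first base of the type I cluster (upper panel) or the type II cluster with Krt18 (lower panel). Boxes are keratin genes, numbered without the letters Krt and coloured by role, and the dotted line is at 600 bp. The upper panel shows the stretch without keratins between Krt40 and Krt33a, and the lower panel shows the sparse 271.5 kb between Krt75 and Krt1.

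Intervals were dense around Krt8 and Krt18. From the first base of Krt8 (101996711) to the last of Krt18 (102032026) there were 14 intervals in 35.3 kb, or 39.6 per 100 kb, and 17.4% of the sequence was covered. This stretch is much shorter than the sections above, and it did not stand alone, since the first 50 kb of the type II cluster, at Krt80, held 19 intervals with 16.5% covered. Within 10 kb of the gene body, Krt19 (4.78 per 10 kb) and Krt39 (3.52) had more intervals per 10 kb than Krt18 (3.36) and Krt8 (2.90). The start sites lie 23.9 kb apart and the genes point away from each other. Between them were 10 intervals, the widest of 796 bp (102025358 to 102026153), 772 bp (102004921 to 102005692), 677 bp (102010624 to 102011300) and 656 bp (102016005 to 102016660). The Krt8 start lay in a gap, with the interval of 772 bp ending 579 bp before it and another of 566 bp beginning 916 bp after it. Beyond the finish of Krt18 lay an interval of 1606 bp, at 102033438 to 102035043. It was the widest among those nearest to a keratin gene. The interval of 1934 bp within 10 kb of Krt222 (99229607 to 99231540) is wider, but lies over the end of its neighbour Smarce1, a subunit gene of a chromatin remodelling complex.

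**Figure D3:**
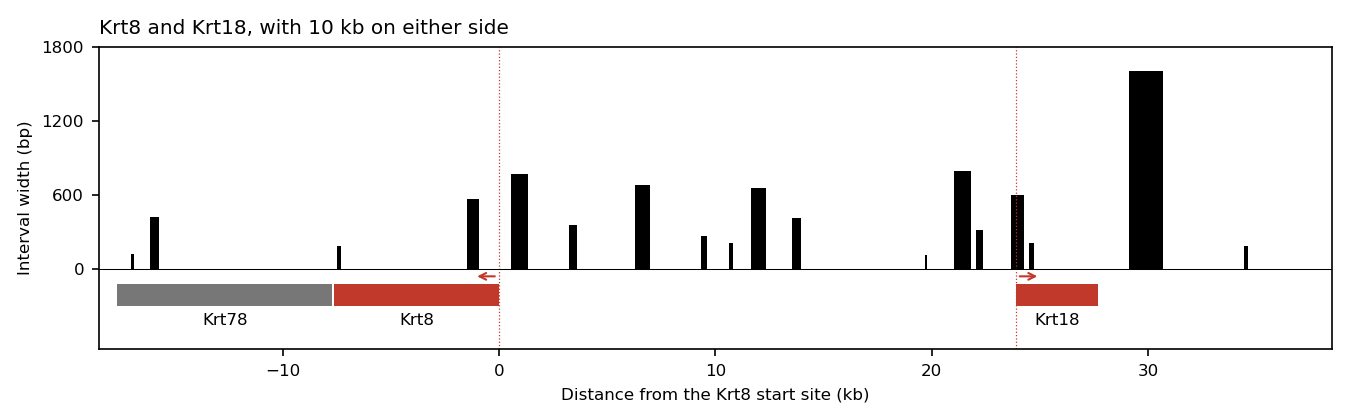
Consensus intervals (black, drawn to their width along the axis and with the same width in bp as their height) are plotted against the distance from the Krt8 start site in kb, with genes as boxes and start sites as dotted lines with arrows in the direction of transcription. The Krt8 start has intervals on both sides and none on it, and the Krt18 start, 23.9 kb away, lies under the interval of 601 bp.

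Counted within 10 kb of the gene body, 50 of the 53 keratins (94.3%) had an interval, beside 85.3% of all protein-coding genes. Over the gene body itself it was 38 of 53 (71.7%), beside 79.1% of all genes, whose median length of 17.2 kb exceeds the 7.07 kb of the keratins. An interval of at least 600 bp lay within 10 kb of 33 of the 53 (62.3%), and the share of all genes was also 79.1%. The keratins had a median of 4 intervals within 10 kb (range 0 to 13), and all genes had 8. The 13691 other protein-coding genes within the length range of the keratins had a median of 7, and 75.9% of those with a listed start had an interval within 1 kb of it. Per 10 kb of the sequence searched, the medians were 1.51 for the keratins and 1.82 for all genes. In all 184 distinct intervals lay in these surroundings, 77 of them over a keratin gene, and 71 were counted for more than 1 keratin.

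All 27 genes of the type I cluster and 22 of the 25 of the type II cluster (88.0%) had an interval within 10 kb, with a median of 4 in both. Over all protein-coding genes the share was 85.3%. An interval of at least 600 bp lay within 10 kb of 14 type I (51.9%) and 18 type II genes (72.0%), beside 79.1% of all genes. Within 1 kb of a listed start site an interval of that width lay at 1 of 20 type I genes (5.0%) and 2 of 15 type II genes (13.3%). The share of all genes was 64.1%. An interval of any width lay there at 6 of the 20 (30.0%) and 2 of the 15 (13.3%), beside 71.6% of all genes. The start base was covered in 3 of the 20 type I genes and in none of the 15 type II genes, beside 65.3% of all genes. Krt18, which is counted in neither cluster, was the fourth member with a covered start. These counts are small and their difference was not tested.

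By role, the simple epithelial keratins had a median of 7.5 intervals (range 7 to 12), against 4 (range 0 to 13) for the other 47 keratins. Their median count was near the 8 of all protein-coding genes and the 7 of other genes in the length range of the keratins. Per 10 kb of the sequence searched it was higher, 2.62, beside 1.82 for all genes and 2.01 in that length range. This difference was not tested. Krt19 had 12, Krt8 and Krt18 had 8 each, and Krt7, Krt20 and Krt23 had 7 each. The basal keratins had 8 at Krt15 and 5 each at Krt5 and Krt14. Krt80, a widely expressed epithelial keratin, and Krt78 had 13 each, the highest counts. Krt78 is the longest member at 50.6 kb, and per 10 kb it had 1.84.

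The keratins of suprabasal epidermis, palm and sole ranged from 6 at Krt10 through 5 at Krt1 and Krt77 and 3 at Krt9 to 0 at Krt2. Of the mucosal and corneal keratins besides Krt78, Krt12 had 9, Krt24 and Krt76 had 4 each, and Krt4 and Krt13 had 3 each. The keratins of stress, wounds and appendages had few, with 4 at Krt79, 3 at Krt75, 2 each at Krt6a, Krt16 and Krt17 and 0 at Krt6b. The only members without an interval in their surroundings were Krt6b, Krt73 and Krt2, all of the type II cluster.

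Among the keratins of the hair follicle, the inner root sheath genes of the type I cluster (Krt25, Krt26, Krt27 and Krt28) had 8, 7, 3 and 4 intervals, and those of the type II cluster (Krt71, Krt72 and Krt73) had 1, 3 and 0. The 15 hair shaft keratins had a median of 4. Krt39 came first with 10, then Krt83 with 8, Krt33a with 7, and Krt33b and Krt84 with 6 each. Krt81, Krt82, Krt86 and Krt87 had 4 each, Krt31, Krt32 and Krt36 had 3 each, and Krt34, Krt35 and Krt40 had 2 each. Of the remaining members, which were given no role here, Krt88 and Krt222 had 5 each, Krt42 had 4 and Krt90 had 3. Krt6a and Krt6b, and several hair keratins such as Krt33a and Krt33b, are close copies of each other. The sources used here do not give how reads matching several copies were treated, so the counts of these genes are uncertain.

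**Figure D4:**
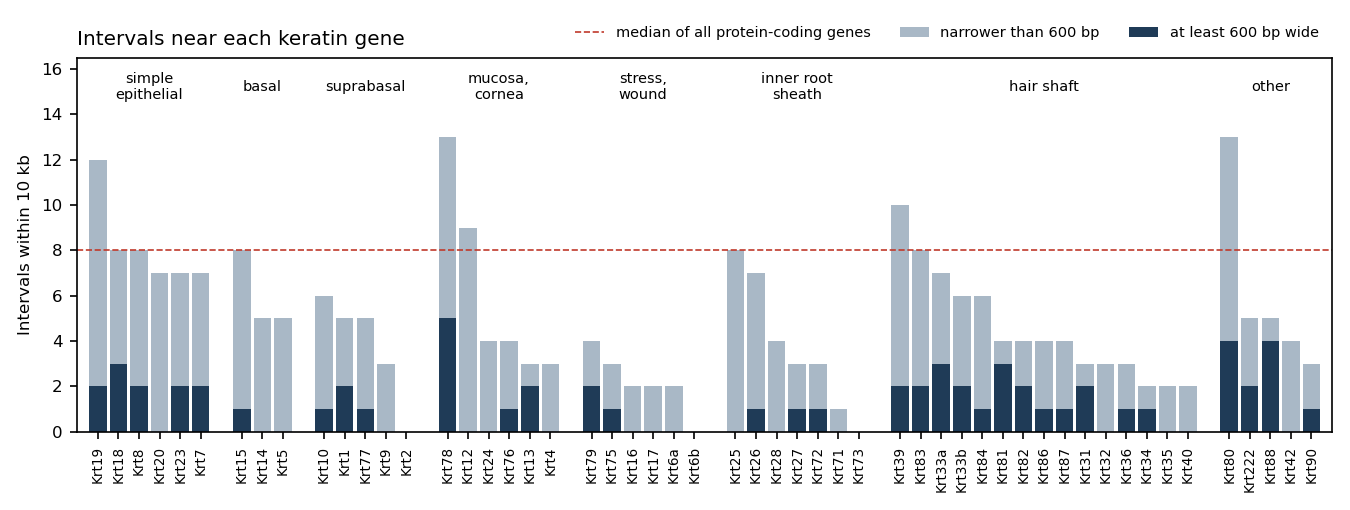
Bars give the number of consensus intervals within 10 kb of each of the 53 keratin genes, grouped by role, with the dark part for intervals of at least 600 bp, and the dashed line is the median of 8 over all protein-coding genes. The 6 simple epithelial keratins have 7 to 12 each, and Krt2, Krt6b and Krt73 have none.

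Keratin promoter windows were poorer in CG dinucleotides than others, a property of the sequence and not of these cells. The 37 windows held a median of 5 CG in 300 bases, against 13 over the 21262 windows of protein-coding genes. The letters TATAAA were found, on either strand, in 19 of the 37 (51.4%), against 12.6% of all windows, and GGGCGG in 2 (5.41%), against 46.2%. CANNTG, the E-box core bound by myogenic factors among others, was in 30 (81.1%) against 69.0%, and its form CAGCTG, counted within it, in 7 (18.9%) against 15.6%. TGANTCA, the AP-1 core, was in 2 (5.41%) against 6.99%, both of them windows of Krt13. In the printed Krt13 window it begins 183 and 34 bases before the start. A match shows the letters only, not a bound site.

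Windows with few CG had an interval less often over the whole genome. Of all windows with 0 to 2 CG, 20.4% had an interval within 1 kb of the start, and of the keratin windows in that class it was 1 of 7. With 3 to 5 CG it was 3 of 13 keratin windows and 47.5% of all, with 6 to 10 CG 5 of 14 and 72.4%, and with 11 to 20 CG 1 of 2 (Krt18) and 94.0%. Krt7 held 21 CG, the most of the keratins, and had no interval there, while 97.1% of all windows with 21 or more had one.

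**Figure D5:**
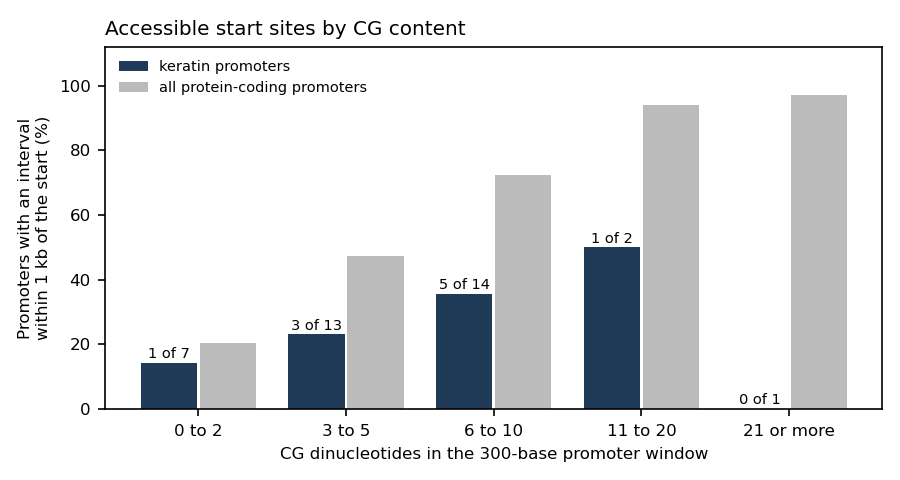
Bars give the percentage of promoter windows with a consensus interval within 1 kb of the start site, by the number of CG dinucleotides in the 300-base window, for keratin promoters (dark, with counts above) and all protein-coding promoters (grey). The keratin share is below that of all promoters in each class, from 1 of 7 beside 20.4% to 0 of 1 beside 97.1%.

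Other genes of the filament system are set here beside the 71.6% of all protein-coding genes with an interval within 1 kb of a listed start, and the 64.1% with one of at least 600 bp. Of the 15 other intermediate filament genes, 12 had a listed start and 11 of these (91.7%) an interval within 1 kb. The widest were at Nes (2923 bp), which encodes nestin, Sync (2556 bp), which encodes syncoilin, and Synm (1529 bp), which encodes synemin. Vim, given for its role in fibroblasts, had 1523 bp. Gfap, of astrocytes, had none at its listed start and one of 254 bp at a gene end. Of the 11 linker genes, which tie keratins to junctions or to other filaments, 4 had a listed start and 3 of these (near the share of all genes) an interval, at Dsp (1839 bp, desmoplakin), Jup (1423 bp, plakoglobin) and Dst (1270 bp, dystonin). Macf1, a linker of actin and microtubules, had none within 1 kb of its listed start, but one of 2152 bp within 1 kb of a gene end. All 11 linker genes had an interval at an end, beside 74.7% of all protein-coding genes.

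The 18 regulators of keratin genes had 11 listed starts, of which 10 (90.9%) had an interval of at least 600 bp, beside 64.1% of all genes. The widest were at Foxa2 (2113 bp), Ovol2 (1796 bp) and Gata3 (1555 bp). Foxn1, the regulator of hair keratinisation, had none at its listed start, and the widest at its gene ends was 212 bp. Of the 6 cornified envelope genes 3 (50.0%) had an interval at a start, beside 71.6% of all genes. They were Lor (1787 bp, loricrin), Ivl (318 bp, involucrin) and Tgm1 (271 bp, a transglutaminase), and Flg, Sprr1b and Tgm3 had none. The 5 repressors of the epithelial state had 3 listed starts, each with an interval, at Twist1 (2522 bp), Zeb2 (1497 bp) and Snai1 (906 bp). Vim and Grhl2 stand in a list here and among the markers above. The lists are small, and the differences between them were not tested.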

How the data were processed

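The authors deposited a table of consensus intervals with a start and an end each. Per the file headers it was made with HOMER's annotatePeaks on a GRCm38.p6 sequence and GENCODE vM23, and the tools named in the submitters' processing notes are BWA, DESeq2 and MACS2. Peak thresholds, tool versions and the joining of peaks: not given in the sources used here. In the authors' table the deposited peak score is 0 in every row and was not used. A wide interval can be several joined peaks.

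Genes and promoter windows came from RefSeq on the same assembly, GRCm38.p6 (36 of 53 keratins had a start site there). Chromosomes 1 to 19, X and Y hold 323397 intervals. An interval counted for a gene if it overlapped the body extended by 10 kb, or the 1 kb on either side of a start, by at least 1 bp, and it could count for several genes. Overlap counting was tested on simulated intervals. The members, the lists and the rule for named genes (simple and basal members, those with the most or widest intervals or with none, and 3 of each other list, with Vim and the Krt20 window added after their values were seen) were chosen with earlier results of these data known. Planned comparisons of groups and protein sequences were not run. Python 3.11.15, numpy 2.4.6, pandas 2.3.3 and matplotlib 3.10.9 were used.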

Additional observations from a re-analysis of the deposited data

How the results depend on the processing

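Of 31 recomputed values, 17 moved by no more than 1.5 times and 12 moved farther. The other 2 were ratios of the clusters that turned direction, which was checked for these ratios only. The share of keratins with an interval within 10 kb was above that of all genes (94.3% against 85.3%). It was below over the gene body only (71.7% against 79.1%) and with intervals of at least 600 bp (62.3% against 79.1%). With intervals of at least 600 bp, 33 keratins had one within 10 kb. At the start site it was 4 of 36 (11.1%, all genes 64.1%). The count at start sites was 14 of 36 (38.9%, all genes 75.2%) within 2 kb and 29 of 36 (80.6%, all genes 80.0%) within 5 kb. The shortfall beside all genes thus depended on the distance. At either gene end, within 1 kb, the count was 31 of 53 (58.5%, all genes 74.7%), where a shortfall remained. Over the gene body only, the median count of intervals was 1 in both clusters and 2 in simple epithelial keratins. With intervals of at least 300 bp it was 2 for type I, and with each interval counted for its nearest gene it was 2 for type II. Densities with intervals of at least 300 bp were 7.62 per 100 kb for type I and 8.78 for type II. The ratio of type I to type II density, a comparison added after seeing the data, was 1.08, and it turned to 0.868 with intervals of at least 300 bp and to 0.911 by the share of sequence covered. Without close copies, likewise added after seeing the data, 9 of 35 starts had an interval, beside 9 of 36 with them. That setting left the set almost unchanged, so it cannot show how reads matching several copies affect the counts. No paired analysis was possible because no column gives a value per library, and leaving out libraries was not run for that reason. Depth is unknown, so absence of an interval is not absence of access.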

Other observations

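The keratin-associated protein genes, which encode matrix proteins of the hair shaft, differed by chromosome. On chromosome 11, between the blocks of type I keratins, 14 of 21 Krtap genes with a listed start had an interval within 1 kb of it (66.7%), near the 71.6% of all protein-coding genes, and it was 6 of 20 (30.0%) for the type I keratins around them. These Krtap intervals were narrow, with a median of 248 bp for the widest at each gene. Of the 21 starts, 3 (14.3%) were themselves under an interval, beside 65.3% of all genes with a listed start. Among the type I keratins it was 3 of 20 (15.0%). An interval of at least 600 bp lay within 1 kb of 3 of the 21 (14.3%), beside 64.1% of all such genes. On chromosome 16, 2 of 23 (8.70%) had an interval within 1 kb, and 11 of all 24 Krtap genes there (45.8%) had one within 10 kb, beside 85.3% of all protein-coding genes. The 5 Krtap genes of chromosome 7 had 4 (80.0%) with an interval within 1 kb of the start, beside 71.6% of all genes. Krtap genes are short and lie close together, so that neighbours share intervals, and many are near copies. Whether that moves the counts was not tested.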
